A study of Mus musculus with 2 samples.

Results

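Of splenic NK cells sorted as CD27+CD11b+, the most mature 1 in 3 by rank were examined. The members were selected on measured values: within each library, cells passing an NK cell gate on transcripts were ranked by a maturation score, and the 1 in 3 cells with the highest scores were taken; they are called the mature group or the members, and the next 1 in 3 and the lowest 1 in 3 are called intermediate and least mature. The score was the mean log level of Itgam (CD11b), Klrg1, Zeb2, Cma1 and S1pr5 minus the mean log level of Cd27, Ltb, Emb, Thy1 and Tcf7. The gate asked for at least 500 detected genes, at most 10% mitochondrial UMIs (unique molecular identifiers, 1 per captured transcript), at least 3 UMIs over the NK receptor genes Ncr1, Klrb1c and Klrk1, no UMI of the T cell gene Cd3e and at most 1 UMI over C1qa, C1qb, C1qc, H2-Aa and Pf4. The members were 3454 of 10361 gated cells among 11785 barcodes in the control library and 3039 of 9117 among 10615 in the knockout library, or 6493 members of 22400 barcodes in all.

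The series asked how loss of the E-prostanoid 3 receptor, EP3 (gene Ptger3), which binds prostaglandin E2, affects NK cells. All cells were CD27+CD11b+ NK cells sorted from spleens of C57BL/6 mice, which carried either the floxed alleles alone (EP3F/F, the control) or also the NKp46Cre driver (NKp46CreEP3F/F, the knockout); Cre expressed from Ncr1, the NKp46 gene, acts in NK cells and in other innate lymphoid cells that use this promoter. Cells of 2 mice were pooled per genotype into 1 droplet library of 3′ tags, so both genotypes carry the floxed alleles, the animals cannot be told apart, and genotype and library cannot be told apart. The labels give no treatment and no age. With 1 library per genotype no test between conditions was possible; every interval below covers counting error at 95% only, and the differences between groups, chosen by the score from the same cells, are descriptions.

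NK cells mature through stages read from 2 surface proteins: cells with CD27 alone gain CD11b and later lose CD27. Along this course they gain KLRG1, the egress receptor S1PR5 and stored killing proteins, while features shared with precursors, such as the IL-7 receptor and the transcription factor TCF-1, decline; T-bet and ZEB2 are known drivers of the last steps. Granzymes and perforin are kept in lytic granules and released onto target cells, and Ly49 receptors on mouse NK cells read MHC class I on the cells they meet. Cells with CD27 alone and cells that had lost CD27 were outside the sort for CD27+CD11b+ cells. The mature group is therefore the upper range of the score within the sorted stage.

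The 250 bases before the RefSeq start (build GRCm38.p6) are shown for 4 genes on which the description turns, 3 cytotoxic genes high in the mature group and the chemokine gene Xcl1 that was low there. They are written 5′ to 3′ on the gene's strand, and capitals mark matches to the motifs searched on both strands: GGTGTGA, the T-box core, CAGGTG, an E-box that ZEB factors can bind, and CTTTGAT, a TCF/LEF core. The windows lie at chr14:56262335-56262584 (minus strand), chr13:113100982-113101231 (minus), chr10:61297586-61297835 (plus) and chr1:164935523-164935772 (minus).
Gzmb: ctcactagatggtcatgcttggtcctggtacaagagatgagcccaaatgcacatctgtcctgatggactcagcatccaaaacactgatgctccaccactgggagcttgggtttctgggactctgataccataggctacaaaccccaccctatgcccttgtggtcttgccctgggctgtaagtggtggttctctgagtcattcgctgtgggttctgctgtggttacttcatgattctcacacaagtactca
Gzma: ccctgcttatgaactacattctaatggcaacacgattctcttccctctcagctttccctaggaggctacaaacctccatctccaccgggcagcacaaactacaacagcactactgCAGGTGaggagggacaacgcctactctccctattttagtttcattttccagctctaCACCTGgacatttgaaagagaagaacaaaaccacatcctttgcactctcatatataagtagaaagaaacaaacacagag
Prf1: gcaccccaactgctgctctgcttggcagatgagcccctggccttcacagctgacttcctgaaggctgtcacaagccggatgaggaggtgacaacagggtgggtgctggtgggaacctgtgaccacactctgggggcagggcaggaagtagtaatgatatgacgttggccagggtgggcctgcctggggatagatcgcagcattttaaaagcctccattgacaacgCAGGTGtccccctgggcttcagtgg
Xcl1: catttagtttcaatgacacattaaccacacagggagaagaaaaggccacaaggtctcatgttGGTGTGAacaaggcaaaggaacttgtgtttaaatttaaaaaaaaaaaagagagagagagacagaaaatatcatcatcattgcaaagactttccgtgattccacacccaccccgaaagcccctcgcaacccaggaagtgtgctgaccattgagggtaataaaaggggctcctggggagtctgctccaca
Gzma held the E-box at 135 bases before the start and again, on the other strand, at 79; Prf1 held it once, 25 bases before the start; Xcl1 held the T-box core 188 bases before the start; and Gzmb held none of the 3 motifs in its 300-base window, which ran from 250 bases before to 50 bases after the start. Among the 13 genes highest in the mature group by the naming rule given below, 12 had an entry, with 17 promoter windows, of which 4 held the E-box, 1 the T-box core and 1 the TCF/LEF core. Of the 13 lowest, 9 had an entry with 11 windows, of which 3 held the E-box, 2 the T-box core and 0 the TCF/LEF core. Over all 32851 windows of this length the shares were 20.2%, 3.98% and 3.73%. A match is a run of letters, not a site shown to be bound.

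The scores of the members ran from 0.472 to 2.26 (median 0.7996) in the control library and from 0.284 to 2.51 (median 0.652) in the knockout library. Scores had no gap at either limit of the groups: 565 members (16.4%) of the control library and 479 (15.8%) of the knockout library lay within 0.1 of the lowest member score. The 200 members nearest the limit and the 200 cells just outside it were compared for genes outside the score as well: Gzmb stood at 408 CPM (UMIs per 1000000 of the summed UMIs of those cells) inside and 339.9 outside in the control library, and at 468 and 379 in the knockout library. Xcl1 and Il7r were farther apart in 1 library each: Xcl1 was at 302.6 CPM inside and 58.6 outside in the knockout library (144 and 176 in the control library), and Il7r, a gene of few counts, at 5.0045 CPM inside and 1.61 outside in the control library. A single knockout member held 471 UMIs over Ccl3, Ccl4 and Xcl1, while no knockout member held more than 289 over Ccl3 and Ccl4. Whether that cell was among the 200 inside the limit was not determined. The groups are ranges of a score and not separate cell types. The lower limit itself differed between the libraries because it was set within each.

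**Figure D1:**
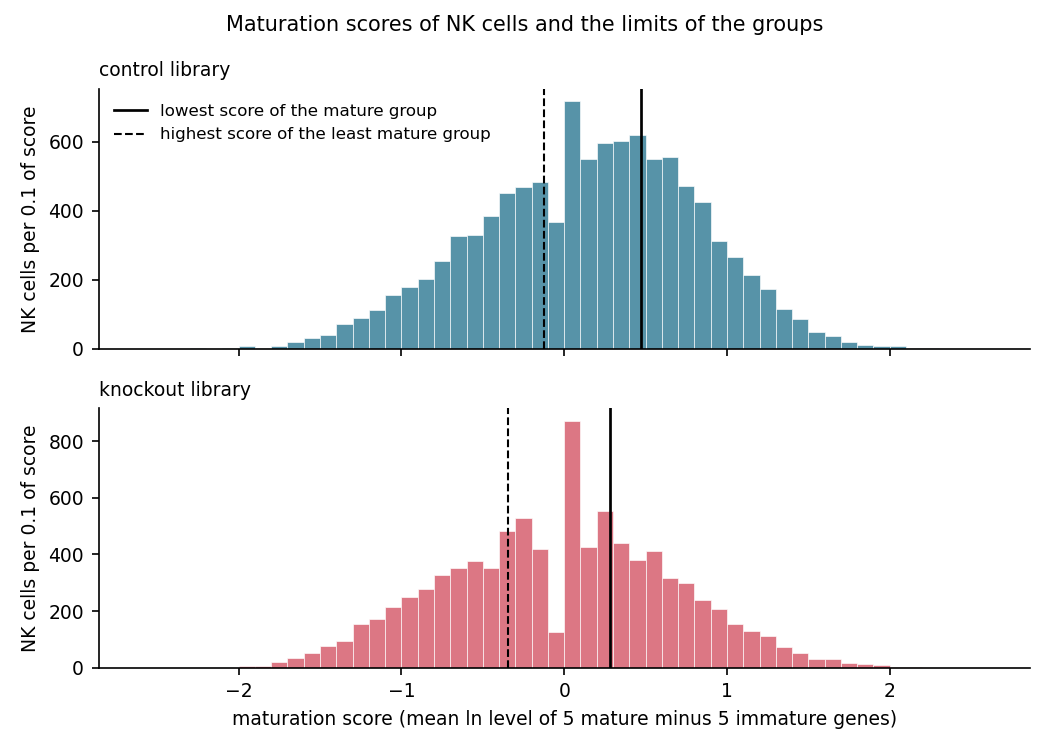
Number of gated NK cells per 0.1 of maturation score (x axis, mean log level of 5 mature minus 5 immature genes) in the control library (upper panel) and the knockout library (lower panel). The solid line marks the lowest score of the mature group, 0.472 and 0.284, and the dashed line the highest score of the least mature group; no gap lies at either line, and the tall bar that starts at 0 includes the 321 control and 713 knockout cells whose score was exactly 0.

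The genes that chose the members followed the label of mature NK cells, which is a description only. Itgam, the CD11b gene, was at 243, 144 and 88.3 CPM in the mature, intermediate and least mature groups of the control library and at 159, 83.8 and 45.2 CPM in the knockout library. Klrg1 was at 124 and 108 CPM in the 2 mature groups against 26.2 and 12.7 in the least mature. Cma1, the mast cell chymase gene that mature NK cells also transcribe, was at 341 and 451 CPM in the 2 mature groups against 55.5 and 54.7 in the least mature. Cd27, which the sort required as a protein, was still at 69.1 and 67.7 CPM in the mature groups, against 205 and 256 in the least mature. Ltb was the most depleted gene of the score, with 15.5 and 19.1 CPM against 284 and 423.

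Depth differed more between libraries than between groups. Members had a median of 5338.5 UMIs in the control library and 3542 in the knockout library, against 6359.5 and 4096 in the least mature group, and 2012 and 1447 detected genes. The summed UMIs of the members were 20128665 and 12015894. No UMI of any immature gene of the score was found in 1222 of 3454 control and 1622 of 3039 knockout members. In the least mature groups, 433 control and 1230 knockout cells held no UMI of a mature gene of the score. Scoring after thinning to 2000 UMIs kept 70.2% of the control and 77.1% of the knockout members. Membership thus changed with the depth at which cells were scored. The mitochondrial share was 3.41% and 3.80% in the members and 3.55% and 3.98% in the least mature group. No doublet caller was run; 12 control and 16 knockout members held more than 3 times the median UMIs of their library's gated cells. Of all deposited barcodes 33 occurred in both libraries, and 1 of them was a member in both.

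The targeted gene was nearly undetected. Ptger3 had 9 UMIs in the control members (0.447 CPM, exact Poisson interval 0.204 to 0.849) and 2 UMIs each in the intermediate and the least mature group. The knockout library had 0 UMIs in all 3 groups, for which the exact Poisson interval over the members reaches 0.307 CPM. Whether the 3′ tags of Ptger3 lie outside the deleted exons was not determined, so these counts check the labels only weakly. Ncr1, whose promoter drives Cre, was at 821 CPM in the control and 892 CPM in the knockout members.

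Over the 7322 genes measured (at least 10 CPM on average over the mature and least mature groups, the 10 genes of the score left out) the members carried a limited set of differences from the least mature group. A gene is called higher or lower here when its log2 ratio of CPM is at least 0.32 in size, about 1.25-fold. In the control library 314 genes (4.29% of those measured) were higher and 281 (3.84%) lower; in the knockout library 366 (5.0%) were higher and 343 (4.68%) lower. Both libraries had 173 of these genes higher (2.36%) and 171 lower (2.34%). For 172 of the 173 and 169 of the 171 the counting intervals left out 0 in both libraries, and 163 and 157 of them were ordered from mature through intermediate to least mature in both. At a bound of 0.58, 43 genes were higher and 65 lower in both. Counts called in both libraries within the gene lists below stand beside shares of 2.36% higher and 2.34% lower over all measured genes.

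The median log2 ratio over all measured genes was 0.04 for control cells and 0.03 for knockout cells, with SDs of 0.22 and 0.25 across genes. Across these 7322 genes the ratios of the 2 separate libraries had a Pearson correlation of 0.69 and a Spearman correlation of 0.50. Genes are not independent replicates, and the members of both libraries were chosen by the same 10 genes.

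**Figure D2:**
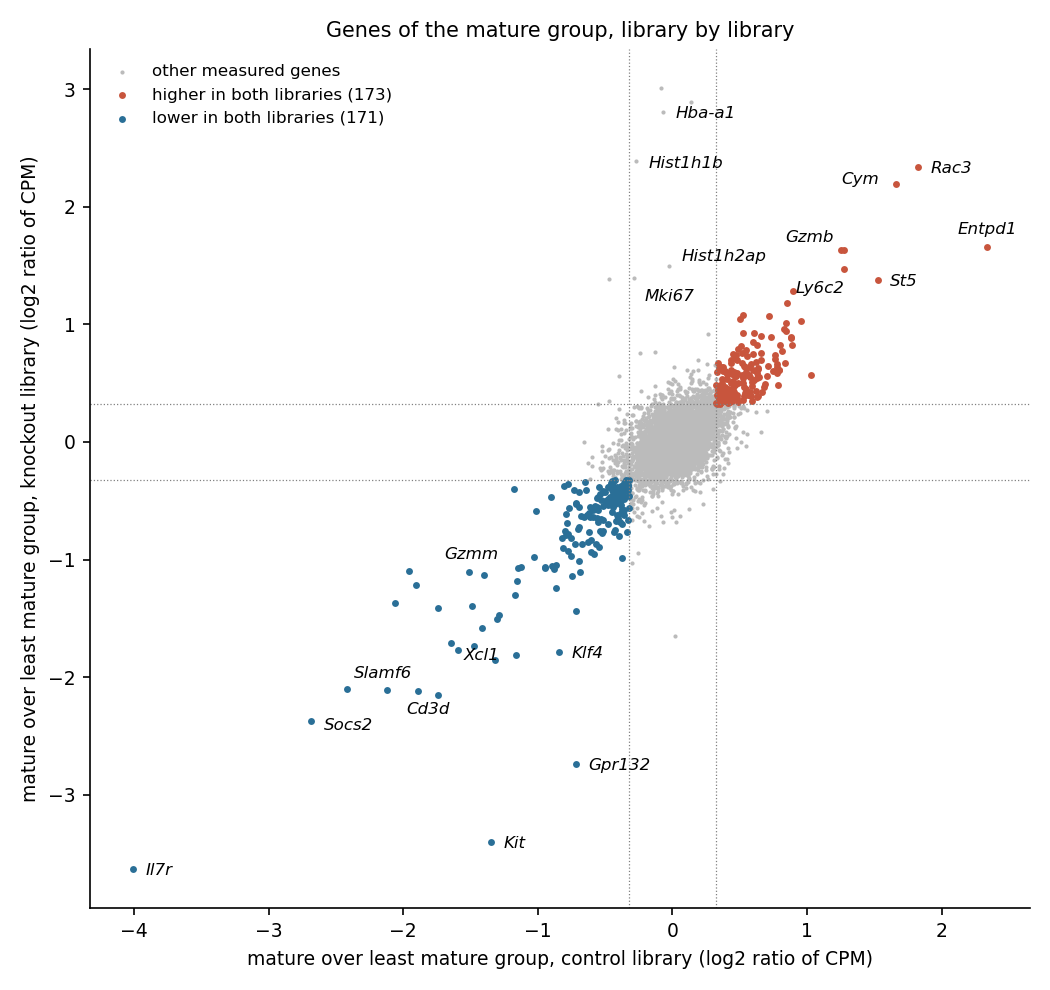
Log2 ratio of CPM, mature over least mature group, in the control library (x axis) and in the knockout library (y axis) for each of 7322 measured genes, with dotted lines at the bound of 0.32. Genes beyond the bound in both libraries are coloured (173 higher, 171 lower); Il7r lies farthest to the lower left at -4.01 and -3.63, and the haemoglobin gene Hba-a1 and the division genes Mki67, Hist1h1b and Hist1h2ap lie high in the knockout library and between -0.28 and -0.02 in the control library.

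Among lists with at least 5 measured genes, the killing proteins had the highest medians in both libraries. Of 6 listed granzyme and perforin genes 5 were measured, and 3 of them (Gzma, Gzmb, Prf1) were higher in both libraries while Gzmm was lower; the median log2 ratio was 0.66 for control cells and 0.90 for knockout cells. Gzmb, the granzyme that cleaves after aspartate and triggers caspases (chromosome 14, 56258838 to 56262260 in GRCm38), stood at 403, 281 and 167 CPM in the mature, intermediate and least mature groups of the control library and at 462, 294 and 149 CPM in those of the knockout library. Each library followed the order of the score, with log2 ratios of mature over least mature of 1.27 (1.22 to 1.33) and 1.63 (1.55 to 1.70). Gzma, a granzyme of trypsin-like specificity that starts caspase-independent death, went from 10379 through 8044 to 5788 CPM in the control and from 12899 through 9896 to 6725 CPM in the knockout library (log2 0.84 and 0.94). Perforin (Prf1), which opens the way for granzymes into the target, stood at 744, 625 and 472 CPM in the control and 912, 691 and 489 CPM in the knockout library (log2 0.66 and 0.90). Gzmm went the other way, with 8.69, 14.4 and 24.7 CPM in the control and 5.24, 7.83 and 11.3 CPM in the knockout library. Gzmk was close to level, at 8.89 CPM in the mature and 8.39 CPM in the least mature group of the control library and at 20.7 and 20.5 CPM in the knockout library.

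Cells with a UMI followed the same order at an equal depth of 2000 UMIs drawn from each cell; 39 control and 59 knockout members held fewer and were not used for it. Gzmb was seen in 46.4% of control members (exact binomial interval 44.7 to 48.1%) and 49.0% of knockout members (47.2 to 50.8%), against 23.2% and 20.6% of the least mature cells; unthinned, the member shares were 71.6% and 63.9%. Prf1 was seen in 74.9% and 80.7% of members and 58.2% and 59.1% of the least mature cells. In barcodes with macrophage transcripts and no NK receptor UMI (31 control and 116 knockout barcodes, median 1151 and 1392.5 UMIs, not thinned), Gzmb was seen in 3.23% of the control and 0 of the knockout barcodes (3 barcodes, the limit set for a count of 0, would be 2.59%), and Prf1 in 3.23% and 2.59%. Gzma, by contrast, was seen there in 25.8% and 19.0%, so its near-complete share in NK cells (99.9% and 99.8% of members) was read with that background, and its CPM was used in place of the share.

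Genes of granule release were mostly level. Of 13 measured genes of granule release and the lysosome, 3 were higher in both libraries (Nkg7, the granule membrane gene, with log2 ratios of 0.34 and 0.44, the cathepsin D gene Ctsd with 0.34 and 0.40, and the syntaxin gene Stx11 with 0.34 and 0.39) and none lower, with list medians of 0.24 and 0.11. Cst7, which encodes the protease inhibitor cystatin F, had ratios of 0.31 and 0.66. Serpinb9b, a serpin gene of the family that protects killer cells from their own granzymes, stood at 75.0, 53.5 and 40.5 CPM in the control and 66.9, 52.8 and 37.9 CPM in the knockout library (log2 0.89 and 0.82).

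**Figure D3:**
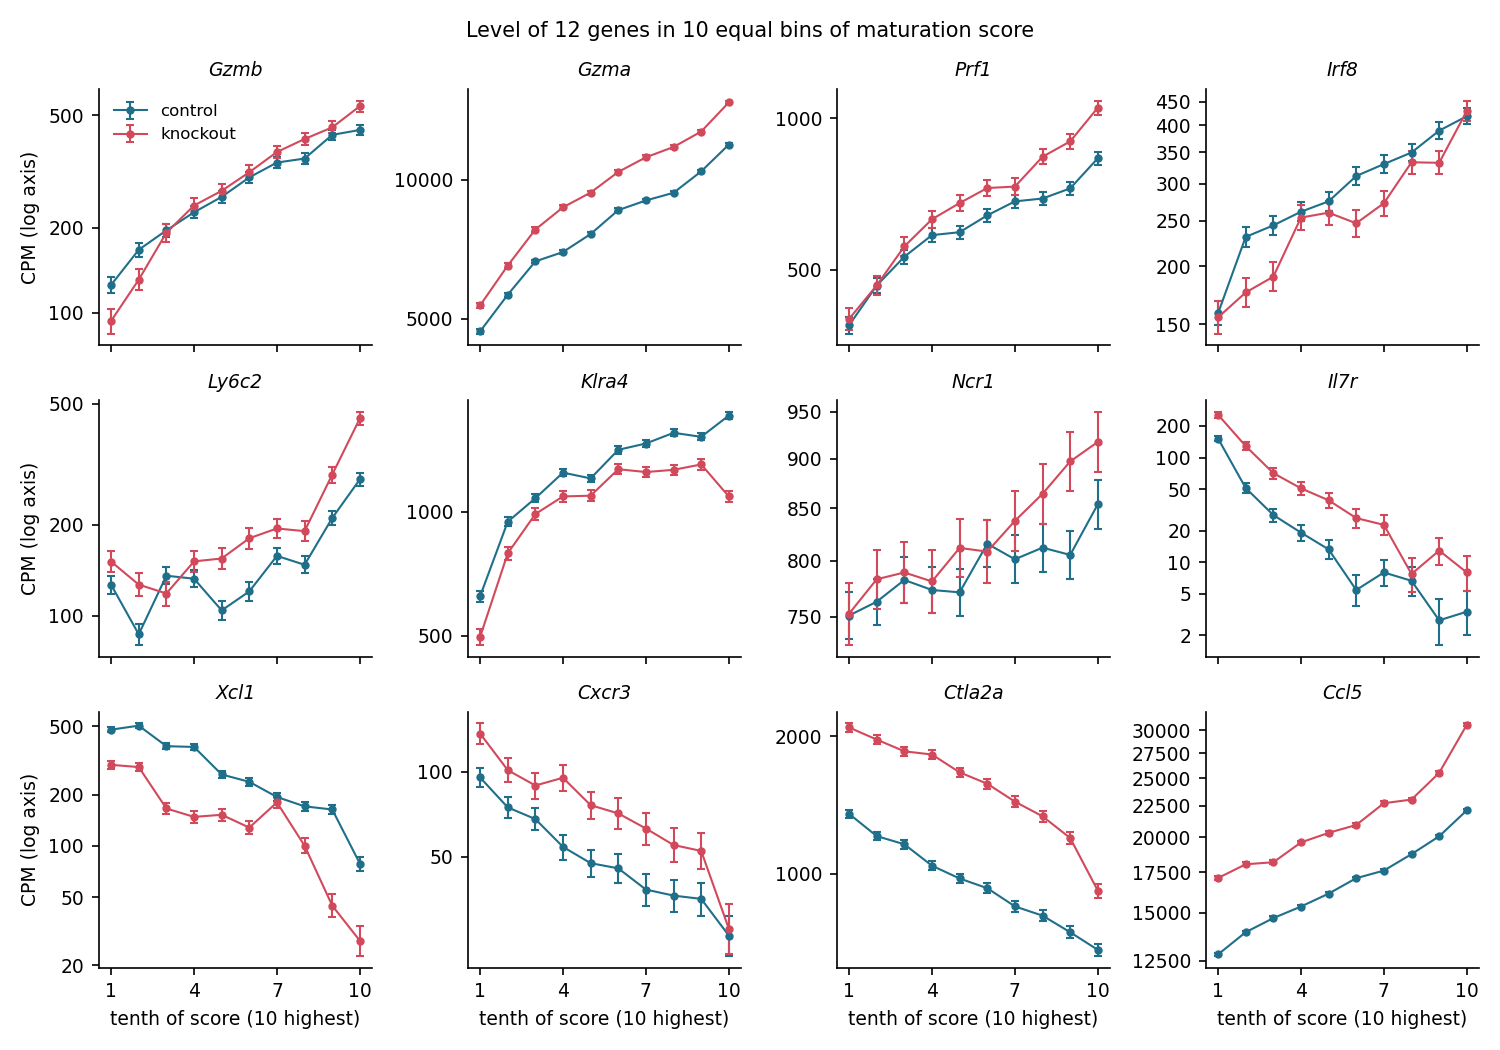
CPM (log axis) of 12 genes in 10 bins of equal cell number along the maturation score of each library (bin 10 highest), with exact Poisson 95% intervals. The members fill about bins 8 to 10; Gzmb ran from 126 CPM in bin 1 to 444 in bin 10 of the control library and from 93.7 to 539 in the knockout library, whereas Il7r ran from 152 to 3.37 and from 256 to 7.98.

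Along the 10 bins most of these levels went gradually. Ly6c2, a Ly6C gene that marks mature and experienced lymphocytes, was an exception in shape: it was at 127 CPM in the lowest bin, 147 in the eighth and 282 in the highest bin of the control library, and at 151, 190.3 and 447 CPM in the knockout library. Its mature and least mature levels were 210.0 and 117 CPM in the control and 303 and 134 CPM in the knockout library (log2 0.85 and 1.18). Klra4 differed between the libraries at the top of the score: the control library reached 1709 CPM in the highest bin, while the knockout library had 1262.5 in the eighth and 1088 in the highest. Ncr1 varied little, from 751 to 854 CPM in the control and from 753 to 917 CPM in the knockout library.

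Ly49 receptors had the next highest medians. Of 9 listed genes 7 were measured; 4 (Klra3, Klra4, Klra8, Klra9) were higher in both libraries and none lower, with medians of 0.50 and 0.64. Klra4 (Ly49D, an activating receptor) stood at 1586, 1309 and 927 CPM in the control and 1211, 1196 and 779 CPM in the knockout library. Klra8 (Ly49H, the activating receptor for a cytomegalovirus protein) stood at 1232 and 799.9 CPM in the 2 mature and 830.1 and 514 CPM in the 2 least mature groups. Klra9 (Ly49I, an inhibitory receptor) had 481, 392 and 339.8 CPM in the control and 753, 542 and 364 CPM in the knockout library, so that the libraries were close in the least mature group and apart in the mature. The Ly49 genes lie side by side on chromosome 6 and are near-identical in parts, so reads may have been shared out among them by the counting.

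Members also combined more Ly49 genes per cell. At 2000 UMIs the mean number of the 9 genes seen was 2.67 in control members and 2.34 in knockout members, against 2.11 and 1.65 in the least mature groups. At least 3 were seen in 56.8% and 44.3% of members against 38.4% and 25.3% of least mature cells, and 0 in 2.31% and 5.60% against 10.4% and 20.9%. Members held more of the genes than least mature cells in both libraries, and the knockout library held fewer in both groups. Of the 9 measured NKG2, CD94 and NKR-P1 receptor genes none was higher and 2 were lower in both libraries, Klrc1 (NKG2A, the inhibitory receptor for Qa-1; log2 -0.65 and -0.34) and Klrb1b (an inhibitory NKR-P1 receptor; log2 -0.33 and -0.37).

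Among transcription factor genes higher in both libraries Irf8 stood out. It stood at 382, 293 and 215.5 CPM in the control and 356, 256 and 183 CPM in the knockout library, with log2 ratios of 0.83 (0.77 to 0.88) and 0.96 (0.89 to 1.03). The factor is known for roles in myeloid differentiation and in NK cell responses; barcodes with macrophage transcripts carry it as well, with a UMI in 22.6% and 44.0% of them. Prdm1 (Blimp-1), a factor of terminal lymphocyte differentiation, had ratios of 0.67 and 0.43, and Tbx21 (T-bet) was at 150.1 and 118 CPM in members and 116 and 92.6 CPM in the least mature groups. Eomes, the T-box factor of earlier NK cells, was level in the control library (348 and 347 CPM) and within the bound in the knockout library (301 and 278 CPM). Of 34 measured factors 5 were higher and 5 lower in both, against 2.36% and 2.34% of all measured genes. The lower factors included Myb, a factor of progenitors, at 20.7 against 50.6 CPM in the control and 11.7 against 32.3 CPM in the knockout library.

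Of 18 measured integrin and adhesion genes 3 were higher in both libraries and none lower: Itga4, the alpha chain of VLA-4 (1051 and 801 CPM in the control, 475 and 343 CPM in the knockout library), Itgb2, the common beta chain of the leukocyte integrins (log2 0.47 and 0.56), and the small GTPase gene Rap1b, which acts in integrin activation (0.49 and 0.50). Of 8 measured trafficking receptors 3 were lower: Cxcr3, the receptor of interferon-induced chemokines, at 34.4 against 76.5 and 47.7 against 108 CPM; Ccr2 (log2 -0.52 and -0.41); and S1pr1, the egress receptor, with 43.6 against 56.5 and 31.9 against 63.2 CPM. The sphingosine receptor gene S1pr4 had log2 ratios of 0.31 and 0.28. None of 28 measured actin cytoskeleton genes passed the bound in both libraries, and their median was 0.06 in each. Over all measured genes 2.36% were higher and 2.34% lower in both libraries, so 0 of 28 is near those shares.

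Chemokine genes split. Ccl3, Ccl4 and Ccl5, which encode inflammatory chemokines, were higher in both libraries and Xcl1, whose product attracts XCR1-bearing dendritic cells, was lower. Ccl5 stood at 20046 CPM in control and 26064 CPM in knockout members against 13936 and 17925 CPM in the least mature groups. It was also seen in 58.1% of control and 34.5% of knockout barcodes with macrophage transcripts and no NK receptor UMI (not thinned). Ccl3 had 245 against 149 CPM and 157 against 75.0 CPM, and at 2000 UMIs cells with at least 3 UMIs over Ccl3 and Ccl4 made up 13.4% of control and 5.60% of knockout members against 7.24% and 2.38% of least mature cells (unthinned, 37.7% and 14.1% of members). Xcl1 stood at 144, 263 and 450.4 CPM in the control and at 74.2, 145 and 243 CPM in the knockout library. The 74.2 CPM of knockout members includes 1 cell with 471 UMIs over Ccl3, Ccl4 and Xcl1. Interferon gamma (Ifng) was level, with log2 ratios of 0.06 and 0.08.

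Most genes listed for less mature cells were low in the members. On a list of surface and secreted genes of immature NK cells, which was drawn up with earlier results of these libraries known, 12 of 21 were measured; 9 were lower in both libraries and none higher, with medians of -0.58 and -0.63. Il7r, the alpha chain of the IL-7 receptor (chromosome 15, 9505788 to 9530176), lay farthest from the other genes, with 4.37, 11.7 and 70.3 CPM in the control and 11.5, 33.4 and 142 CPM in the knockout library (log2 -4.01, -4.33 to -3.70, and -3.63, -3.89 to -3.38). It was seen in 0.761% of control and 1.71% of knockout members at 2000 UMIs. Cd28, the costimulatory receptor, was at 43.4 against 107 CPM and 37.0 against 105 CPM, and the SLAM receptor gene Slamf6 at 9.29 against 40.4 and 13.98 against 60.4 CPM. Crtam (log2 -1.49 and -1.39), Cd160 (-0.79 and -0.79), Cd69 (-0.60 and -0.83), Ctla2a (-0.69 and -0.72) and Ly6e (-0.79 and -0.61) lay on the same side. Lyst, whose product governs the size of lytic granules, was at 55.1 against 101 CPM and 29.7 against 70.1 CPM.

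Il7r and T cell genes also mark cells that are not conventional NK cells. The summed level of 7 genes known from ILC1, a tissue-resident relative of NK cells, was 23.1 and 55.5 CPM in the members against 103 and 231 CPM in the least mature groups, with Il7r the largest part of both least mature sums and Rora, at 11.2 and 34.4 CPM, of both member sums. The summed level of 8 T cell genes was 479 and 575 CPM against 620 and 819 CPM; most came from the constant-region genes Trbc1 and Trbc2, which NK cells also transcribe, while Cd3e was 0 by the gate, and Cd3d was at 6.06 against 22.4 and 6.57 against 28.6 CPM. When every cell with a UMI of Cd3d, Cd3g, Cxcr6, Cd200r1, Tmem176a or Tmem176b was left out, an alternative added after seeing the data, 3230 control and 2762 knockout members remained and 160 genes were higher and 157 lower in both libraries; Gzmb had ratios of 1.23 and 1.53. Il7r had ratios of -3.83 and -3.40 and Slamf6 of -2.07 and -2.18.

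Several genes below the 50 CPM that the naming rule asked for also stood apart, some with ratios beyond that of Gzmb, and they were picked after their values were seen. Rac3, a small GTPase gene, stood at 34.5, 20.6 and 9.73 CPM in the control and 52.8, 28.6 and 10.5 CPM in the knockout library (log2 1.83 and 2.34). Entpd1 (CD39, an enzyme that degrades extracellular ATP) stood at 30.7, 14.9 and 6.07 CPM and at 22.8, 11.4 and 7.22 CPM (log2 2.34 and 1.66). The counts behind Entpd1 were 617 and 274 UMIs in the members and 144 and 98 in the least mature groups. Cym (log2 1.66 and 2.19), St5 (1.53 and 1.38), the chemerin receptor gene Cmklr1 (1.28 and 1.47), the adhesion gene Mcam (1.25 and 1.63), the metalloproteinase inhibitor gene Timp2 (0.95 and 1.03) and the inhibitory Fc receptor gene Fcgr2b (0.88 and 0.88) were also higher. Socs2, a feedback inhibitor of cytokine signalling, was lower, with 5.27 against 33.8 CPM and 12.3 against 63.8 CPM.

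The 44 measured cytosolic ribosomal protein genes had medians of -0.19 and -0.18, with 0 beyond the bound in both libraries and 2 lower in the control library alone. The 20 measured interferon response genes had medians of -0.19 and -0.22, with 4 lower in both (Isg15, Bst2, Rtp4 and Gbp2). At 2000 UMIs cells with at least 3 UMIs over 10 interferon-induced genes such as Ifit1 and Isg15 made up 0.674% (0.427 to 1.01%) of control members. In least mature control cells the share was 1.02% (0.713 to 1.42%), and these 2 intervals overlapped. In the knockout library the shares were 0.604% (0.358 to 0.953%) of members and 1.41% (1.02 to 1.90%) of least mature cells. Genes of the nuclear-encoded respiratory chain (38 measured, medians -0.01 and 0.06), MHC class I and antigen loading (15 measured, -0.13 and -0.09), glycolysis (15 measured, -0.15 and -0.05) and heat shock (12 measured, -0.10 and 0.00) had 0 genes beyond the bound in both libraries. Over all measured genes 2.36% were higher and 2.34% lower in both, so a count of 0 in lists this short is near those shares. Among cytokine receptor genes 2 of 21 were higher in both, Il12rb2 (log2 0.42 and 0.44) and Il18rap (0.39 and 0.41), which serve IL-12 and IL-18, and 2 were lower, Il7r and Kit.

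**Figure D4:**
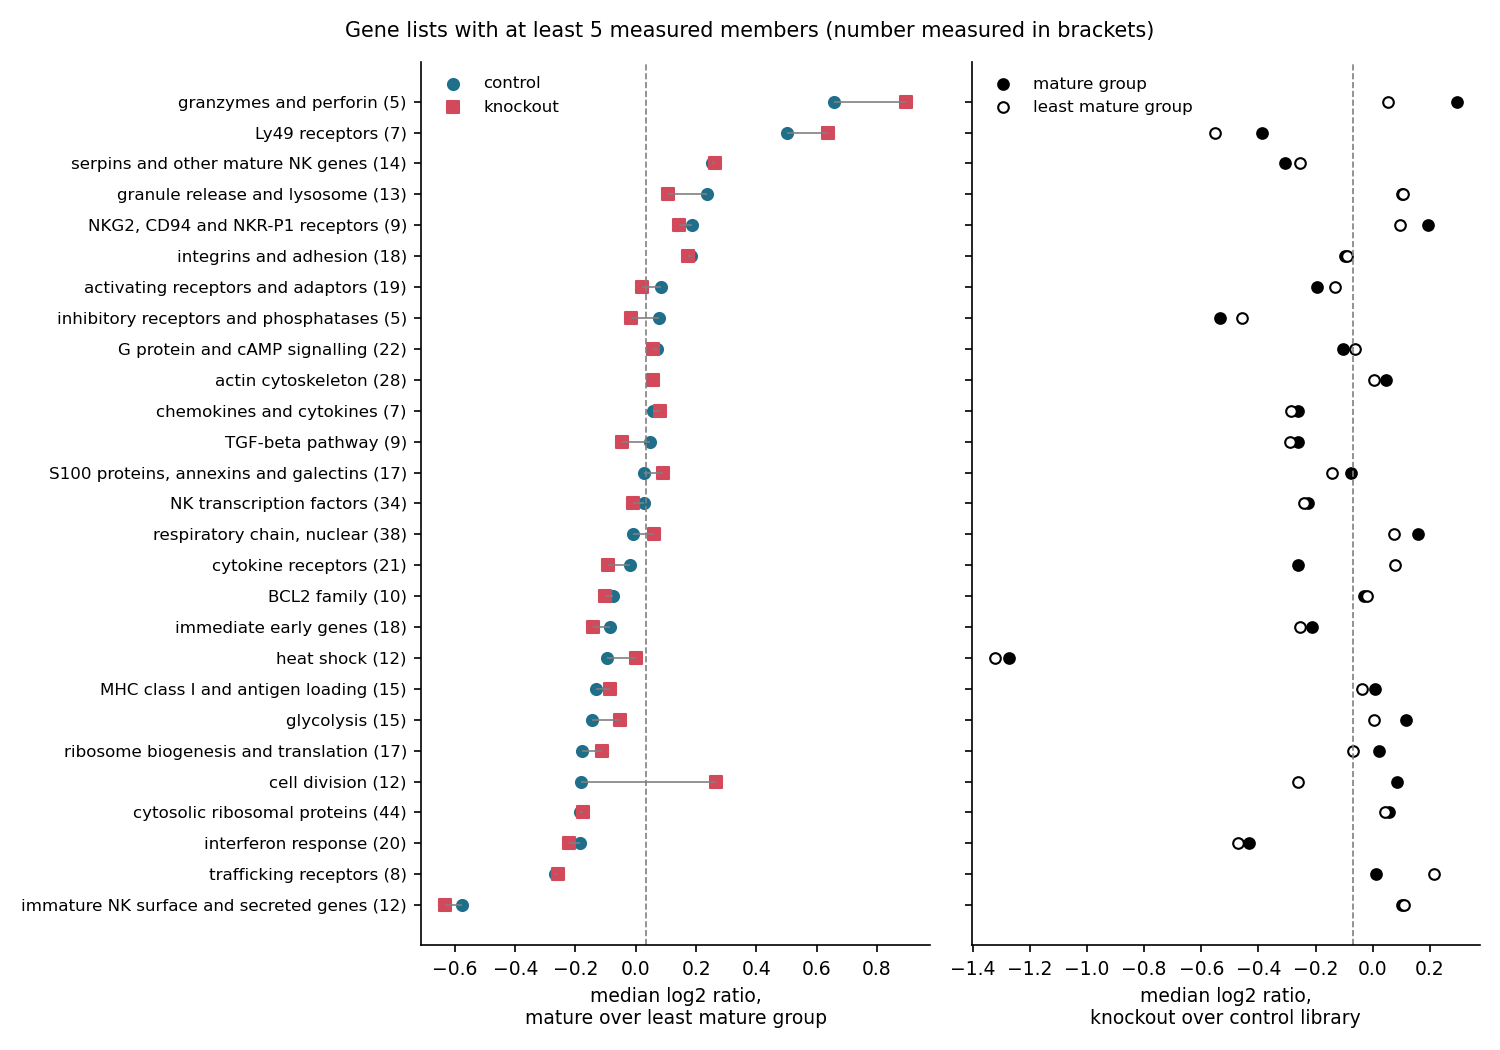
Median log2 ratio of each gene list with at least 5 measured members. The left panel gives mature over least mature group in the control (circles) and knockout (squares) library, and the right panel knockout over control in the mature (filled) and least mature (open) group; dashed lines mark the medians over all measured genes, 0.04 in the control library on the left and -0.07 in the mature group on the right. Granzymes and perforin and the Ly49 receptors lie farthest right on the left panel, cell division genes are apart between libraries (-0.18 and 0.27), and heat shock genes lie at -1.27 in the mature group on the right.

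Of 12 measured cell division genes 5 were higher in the mature group of the knockout library and 0 in that of the control library, with medians of 0.27 and -0.18. Over all measured genes 5.0% were higher in the knockout and 4.29% in the control library. The difference between libraries was not tested. Mki67 stood at 12.4 against 4.72 CPM in the knockout and 15.5 against 18.9 CPM in the control library, and the replication histone gene Hist1h1b, picked after its values were seen, at 30.8 against 5.90 CPM and 20.4 against 24.6 CPM. Few cells carried these counts: at 2000 UMIs, 38 of 2980 knockout members (1.28%, 0.904 to 1.75%) had at least 3 UMIs over the division genes, against 11 of 2978 least mature cells (0.369%), 23 of 3415 control members (0.674%) and 25 of 3424 least mature control cells (0.730%). Histone transcripts of this cluster resemble each other and reads may be shared among its genes. When cells were scored after thinning to 2000 UMIs, the knockout ratio of Mki67 was -0.49 in place of 1.39. Without the cells that carried division or haemoglobin counts, the knockout ratios were -0.55 for Mki67 and -0.22 for Top2a, and the difference between libraries for Stmn1 was -0.02 in place of 0.65.

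The haemoglobin sum of the knockout members rested mostly on 1 cell. Hba-a1 was at 46.9 CPM in knockout members and 6.71 CPM in the least mature group, against 5.66 and 5.94 CPM in the control library, and a single barcode held 1541 of the 2291 haemoglobin UMIs of the knockout members. Summed over the 4 erythroid genes the level was 191 CPM in knockout members, 27.0 CPM in their least mature counterparts and 24.5 and 24.3 CPM in the control library. Markers of other cells in the members summed to 94.7 and 64.7 CPM over 5 B cell genes, of which Ighm made up 92.5 and 58.4, against 137 and 115 CPM in the least mature groups. In members the sums were 4.57 and 13.7 CPM over 6 macrophage genes, against 5.14 and 9.80 CPM in the least mature groups. Over 5 dendritic cell genes, of which 2 had 0 UMIs in both mature groups, they were 1.34 and 2.91 against 1.14 and 4.13 CPM. Over 5 neutrophil and monocyte genes they were 5.37 and 26.4 against 4.26 and 16.7 CPM, so these were higher in the members of both libraries.

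Between the genotypes, the mature groups differed in many more genes than the groups differed within a library. Knockout members had 1163 genes higher (15.9% of those measured) and 2203 lower (30.1%) than control members, around a median log2 ratio of -0.07 (SD 0.47 across genes). With median-of-ratios scaling the split was 1571 higher and 1840 lower. Most of these calls were shared with the least mature group: 844 of the 1163 higher and 1829 of the 2203 lower genes were called there too. Across the 7319 genes with an exon length the ratio had a Spearman correlation of -0.52 with that length, and after subtracting the median of the 300 genes nearest in length 1257 genes were higher and 1361 lower. The libraries also differed in depth, and the parts of genotype, mice, library and depth in these counts cannot be told apart.

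Among the genes farthest apart by the naming rule, most were about as far apart in the least mature group; Hist1h2ap, at 30.9 and 120.6 CPM in control and knockout members and 31.4 and 42.7 CPM in the least mature groups, was not. Wls, whose product is needed for Wnt secretion and which lies on chromosome 3 at 159839672 to 159938664, in the same region as Ptger3 at 157566892 to 157645888, stood at 55.1, 49.5 and 47.0 CPM in the control and at 599.7, 583 and 519.9 CPM in the knockout library. The mature-group ratio was 3.44 and the least-mature ratio 3.47. Cirbp, a cold-induced RNA-binding protein gene, stood at 63.8 and 311 CPM in members (log2 2.28, and 2.40 in the least mature group), Higd1a at 134 and 368 CPM (1.45 and 1.41) and Klrc1 at 229 and 591 CPM (1.37 and 1.06). On the low side Hsph1, an HSP110 chaperone gene, stood at 122 and 11.2 CPM (log2 -3.44 in the mature and -3.76 in the least mature group) and Camk2n1 at 148 and 16.6 CPM (-3.16 and -2.92). All 12 measured heat shock genes were lower in knockout members, against 30.1% of all measured genes. Their median was -1.27 in the mature and -1.32 in the least mature group. Apobec3, a restriction factor gene, stood at 285 and 84.5 CPM in members (-1.76).

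Within the mature group, knockout over control was 0.31 (0.30 to 0.32) for Gzma, 0.29 (0.26 to 0.33) for Prf1 and 0.20 (0.15 to 0.25) for Gzmb, all inside the bound of 0.32. Other processing put Gzma and Prf1 on either side of it: after the length adjustment the ratios of Gzma, Prf1 and Gzmb were 0.09, 0.14 and -0.03, with median-of-ratios scaling 0.39, 0.37 and 0.27, and with 1 score limit for both libraries 0.37, 0.36 and 0.29. In the least mature group the ratios were 0.22, 0.05 and -0.16. Gzmk was the 1 granzyme beyond the bound upward (8.89 and 20.7 CPM) and Gzmm the 1 downward (8.69 and 5.24 CPM). Of the 18 adhesion genes 0 were higher and 6 lower in knockout members, a share near the 30.1% of all measured genes that were lower; Itga4 was lower by a log2 ratio of -1.15 in the mature and -1.22 in the least mature group, and by -0.63 after the length adjustment. Ly49 genes had a median of -0.39, with 2 of 7 higher (Klra3, Klra9) and 5 lower. Over all measured genes 15.9% were higher and 30.1% lower in knockout members.

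**Figure D5:**
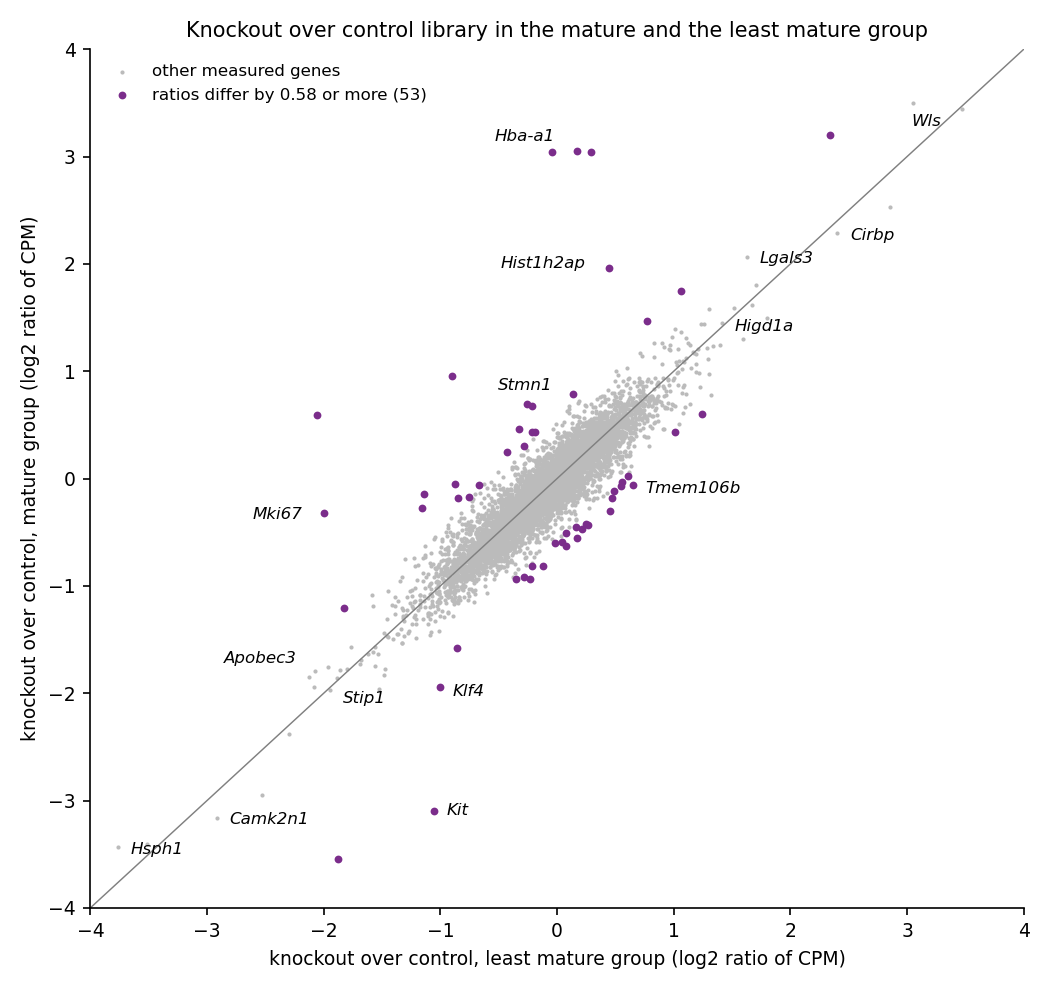
Log2 ratio of CPM, knockout over control, in the least mature group (x axis) and in the mature group (y axis) for 7322 measured genes, with the diagonal as a grey line. The 53 genes whose 2 ratios differ by at least 0.58 are coloured; Wls (3.47 and 3.44) and Hsph1 (-3.76 and -3.44) lie near the diagonal, while Kit (-1.05 and -3.10) lies below it and Mki67 (at -0.32 in the mature group) above it.

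The ratio differed between the mature and the least mature group by at least 0.58 for 53 genes (0.724% of those measured). The count was 172 when cells were scored after thinning to 2000 UMIs and 193 with the highest and lowest sixth of cells. Kit, the stem cell factor receptor of immature NK cells, stood at 15.7, 27.5 and 40.0 CPM in the control but at 1.83, 7.52 and 19.3 CPM in the knockout library, a difference of ratios of -2.05 (-2.70 to -1.39); the knockout members held 22 Kit UMIs. Gpr132, a G protein-coupled receptor gene picked after its values were seen, had a similar course, with 25.98, 28.7 and 42.8 CPM against 1.58, 4.53 and 10.5 CPM and 19 UMIs in knockout members (difference -2.02). S1pr1 was at 31.9 CPM in knockout members and 63.2 CPM in their least mature group, against 43.6 and 56.5 CPM in the control library (difference -0.61, -0.82 to -0.40). Klra9 differed the other way by 0.55 (0.48 to 0.61).

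Most genes named above the 50 CPM level were found by rule. The rule set aside the 10 genes of the score, predicted genes, haemoglobins, antigen receptor segments, genes of ribosomal proteins or mitochondria, and sex-specific genes. It took the 13 highest and 13 lowest in both libraries and the 8 highest and 8 lowest between genotypes. It also took the 6 largest differences of ratios in each direction and up to 4 genes of each list. Ptger3 and Ncr1 were part of the rule. Eomes, Tbx21, Ifng and Gzmk were named outside it, and their values were not followed under the alternatives below. The 13 highest also held Borcs7 (log2 0.81 and 0.77), the fibrinogen-like gene Fgl2 (0.71 and 0.65), the GTPase-activating gene Rap1gap2 (0.64 and 0.63), the adaptor gene Scimp (0.62 and 0.82) and the reductase gene Dcxr (0.61 and 0.93). The 13 lowest also held Serpina3g (-1.03 and -0.98), the tRNA synthetase gene Vars (-0.80 and -0.76), Cmtm7 (-0.75 and -0.81) and Zfp512 (-0.79 and -0.69). The difference of Hist1h2ap was 0.85 when cells were scored after thinning and 0.16 without cells that carried division or haemoglobin counts. As reported, the largest differences of ratios included Hist1h2ap (1.52), Nme1 (0.49) and Tuba1b (0.53) upward and Tmem106b (-0.71), S100a4 (-0.59) and Lmo4 (-0.41) downward. For S100a4 the knockout ratio of mature over least mature was -0.60 with all cells and -0.09 without the cells that held T cell or ILC1 marker UMIs.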

How the data were processed

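Total RNA of sorted NK cells was read in 2 droplet libraries (Single Cell 3 v2 kit, per the labels' protocols). The deposited files hold raw UMI counts per gene and barcode, made by the authors with Cell Ranger 3.0.0, per the file headers; STAR, Seurat and build GRCm39 are named in the submitters' processing notes. The libraries held 69853026 control and 42795121 knockout UMIs.

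Counts were summed per group and library, scaled to CPM and compared as log2 ratios with exact conditional binomial intervals (Python 3.11.15, numpy 2.4.6, scipy 1.17.1, pandas 2.3.3, matplotlib 3.10.9). The score used the natural log of 1 plus UMIs per 10000. No p-value was computed, since each genotype is 1 library. The interval code was tested on simulated data. Exon lengths came from GENCODE (GRCm38), which matched 31011 of 31053 gene IDs. The members, lists and naming rule were chosen with earlier results of these data known. Alternatives covered thinning, other scores, filters, scaling and cells with other markers. Genes of 10 to 50 CPM named outside the lists were picked after their values were seen. Not every gene that the rule named is reported here.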

Additional observations from a re-analysis of the deposited data

Results flagged for a closer look

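In 5 genes the mature group and the least mature group differed in opposite directions in the 2 libraries, with a log2 ratio of 0.32 or more in size in each; this difference between libraries was not tested. The immediate early gene Egr1 had a log2 ratio of -0.56 in control cells and of 0.32 in knockout cells. The same signs were seen in genes of the cell cycle or chromatin: the replication licensing inhibitor Gmnn (-0.39 and 0.56), the helicase gene Hells (-0.48 and 0.35) and the histone gene Hist1h2ae (-0.47 and 1.39). The knockout counting intervals of Egr1 (-0.076 to 0.72) and Hells (-0.0088 to 0.71) held 0. Nr1d2, a nuclear receptor gene of the circadian clock, had the opposite signs, 0.35 and -0.33.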

How the results depend on the processing

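Counts of genes called moved by over 1.5 times under several alternatives, and the cause was not tested except where the alternative itself sets it. Against 173 higher, 171 lower and 53 differing genes as reported, comparing the highest and lowest sixth gave 332, 273 and 193. Scoring cells after thinning to 2000 UMIs gave 172 differing genes. The 5 mature genes alone gave 97 lower and the 5 immature genes alone 107 higher genes. Without a filter beyond 1 UMI, which tests many genes of few counts, 663 were higher, 883 lower and 2271 differing, and 3302 were higher and 3838 lower between genotypes. At 50 CPM or more, which tests fewer genes, 73 were higher, 42 lower and 4 differing, with 358 and 838 between genotypes. A bound of 0.58 gave 43 higher and 65 lower genes, with 340 and 1083 between genotypes. Length adjustment left 1361 lower in the knockout. Against the intermediate group, 31 were higher and 47 lower. Without cells holding a UMI of other cell types' markers, which left 333 control and 498 knockout members, 381 were higher, 420 lower and 1981 differing. Those markers included Ighm and also Trbc1 and Trbc2, which NK cells also transcribe. The filter therefore also removed NK cells with these transcripts, and 9.64% of control and 16.4% of knockout members remained.

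Some named values changed sign; all are log2 values for mature over least mature unless said otherwise. With thinning before scoring, Bcl2a1b (0.33) and Nr1d2 (0.25) in the knockout, Hells (0.14) and Hist1h2ae (0.044) in the control, Mki67 in the knockout (-0.49) and the differences between libraries of Mki67 (-0.36) and Hbb-bs (-0.62) did. With the sixths, Egr1 in the knockout (-0.21), Hist1h2ae in the control (0.035) and Mki67 between genotypes (0.075) did. With the mature genes alone, Egr1 in the knockout (-0.22), Klrb1b in the control (0.026) and the Hbb-bs difference (-0.24) did, and with the immature genes alone Hells (0.030) and Hist1h2ae (0.22) in the control. Length adjustment put Mki67 between genotypes at 0.022.

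Among the few cells without a UMI of other cell types' markers, which included Trbc1, Trbc2 and Ighm, the control values were 0.47 for Egr1, 0.66 for Hells, -0.47 for Prdm1, 0.28 for S1pr1, -0.20 for Serpinb9b and -0.21 for Stx11. The knockout values were 0.80 for Bcl2a1b, 0.16 for Bst2, 0.13 for Cd226, 0.53 for Isg15, -0.15 for Lair1 and -0.016 for Stx11. The differences were 0.76 for Klf4 and 0.65 for Rgs10, and Mki67 between genotypes was 2.01.

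Against the intermediate group, the knockout values were -0.0014 for Ccl4, -0.0057 for Egr1, 0.058 for Gbp2, 0.062 for Klrb1b, 0.026 for Klrc1 and 0.12 for S100a4, and the control values 0.091 for Ikzf2, 0.033 for Klrb1b and 0.038 for Rora. Without cells holding T cell or ILC1 marker UMIs, Hist1h2ae in the control was 0.075. Without cells with division or haemoglobin UMIs it was 0.20; Mki67 and Top2a in the knockout were -0.55 and -0.22; and the differences were -0.047 for Mki67, -0.46 for Top2a, -0.022 for Stmn1 and -0.081 for Hbb-bs. These last 2 alternatives were chosen after seeing the data. With 1 limit for both libraries, stricter cell filters or median-of-ratios scaling, 0 of 321 named values past the bound changed sign, while 17, 9 and 14 fell inside the bound. Inside it also fell 49 of 320 with thinning before scoring and 54 and 41 of 321 with the mature or the immature genes alone. Against the intermediate group 86 of 201 did.

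No paired analysis was possible because each genotype has 1 library, and leaving out a replicate could not be done for the same reason. Counting error is wide for Ptger3, Kit and Gpr132, which had few or 0 UMIs in knockout members.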
